A study of Mus musculus with 15 samples.

Results

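The 8 genes described here are known to respond to thyroid hormone in brain, and they were followed across the 5 groups of a study of mouse hypothalamus. They were chosen by name, as Hr, Klf9, Sema7a, Itih3, Thrsp, Nrgn, Itga7 and Shh, and they are 8 of the 24831 gene names in the deposited table. The choice was made with earlier results of these data known. All 8 were found, with 10 transcripts between them, and all 8 passed the filter on low values, a 5-group mean of 1 RPKM or more, as did 17481 gene names in all. RPKM is the number of reads per kilobase of transcript, scaled to the mapped reads of a library.

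The study asks, by its title, about transgenerational effects of thyroid hormone in F2 animals. Total RNA was sequenced from the hypothalamus at postnatal day 15, all groups being of the outbred stock CD-1. The groups were PGM, PGF, HM, HF and Control, with 3 biological replicates each. The labels give no meaning of the codes, no sex and no genotype or treatment of any animal or ancestor, so the codes are used as they stand. The authors deposited 1 mean RPKM per transcript and group. No value per animal was used, so no mean has an SD, no difference has a replicate check or a p-value, and the read depth is unknown. The spread between animals is therefore not known for any gene, and neighbouring groups in an order of levels cannot be said to differ.

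Thyroid hormone enters brain cells through membrane transporters, is activated or inactivated by deiodinases, and binds nuclear receptors that sit on DNA with or without it. With hormone bound, the receptors release corepressors and transcription of target genes goes up, while a smaller set of genes goes down. In the developing rodent brain the hormone is known for its part in myelination, in neuronal migration and in the maturation of synapses, and the 8 genes cover several of these functions. Hr and Klf9 encode nuclear regulators and are direct targets of the receptor in rodents. Thrsp encodes a nuclear protein that promotes the expression of fat-synthesis enzymes. Sema7a encodes a membrane-anchored semaphorin that guides axons, and Shh a secreted morphogen. Itga7 encodes a laminin-binding integrin subunit, Itih3 a heavy chain that binds hyaluronan in the extracellular matrix, and Nrgn the postsynaptic calmodulin-binding protein neurogranin.

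The bases before the transcription start are shown for Sema7a, the member with the widest spread over the groups, and for Klf9, a direct target of the receptor. They are the 250 bases before the RefSeq start on GRCm38.p6, the assembly called mm10, and in both genes this start coincides with the GENCODE M21 gene start. Both are on the plus strand, at chr9:57939862-57940111 for Sema7a and chr19:23140976-23141225 for Klf9, and are written 5′ to 3′. Capitals mark the GC box GGGCGG, a motif of the kind that Sp and Klf proteins bind.
Sema7a: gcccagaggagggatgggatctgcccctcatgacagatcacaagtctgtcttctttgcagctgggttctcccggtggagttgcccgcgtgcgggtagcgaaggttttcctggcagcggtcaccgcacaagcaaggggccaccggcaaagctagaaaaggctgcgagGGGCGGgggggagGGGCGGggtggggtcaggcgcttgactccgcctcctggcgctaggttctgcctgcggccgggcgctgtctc
Klf9: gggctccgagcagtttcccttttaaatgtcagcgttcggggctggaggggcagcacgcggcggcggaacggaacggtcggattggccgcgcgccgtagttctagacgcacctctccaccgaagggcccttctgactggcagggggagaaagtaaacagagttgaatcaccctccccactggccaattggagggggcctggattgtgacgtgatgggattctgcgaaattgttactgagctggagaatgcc

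The table of promoters held 5 of the 8 genes, Klf9, Sema7a, Itih3, Thrsp and Nrgn. On both strands, the GC box occurred 2 times in the Sema7a window, at 84 and 71 bases before the start, 1 time each in the Itih3 and Nrgn windows, and 0 times in those of Klf9 and Thrsp. Of 32851 RefSeq windows of the same length, 32.7% held it. The hexamer AGGTCA, the core of a thyroid hormone response element, was in 0 of the 5 windows and in 14.0% of all windows. The direct repeat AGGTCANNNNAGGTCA was also in 0 of the 5, and in 5 of the 32851. The RefSeq starts of Itih3, Thrsp and Nrgn lie inside the GENCODE genes, so the larger part of each of these 3 windows is within the annotated gene. These counts concern only these letters in these windows.

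Among the nuclear regulators, Hr and Klf9 were highest in PGM and lowest in Control. Hr (chr14:70552212-70573548) was at 32.72 RPKM in PGM and 31.08 in PGF, with 28.86 in HM and 24.02 in HF, against 21.95 in Control. The level stepped down through the groups in that order, with HF nearest to Control. On the scale of log2(mean RPKM + 0.5), used for all differences, Hr differed from Control by 0.57 in PGM and 0.49 in PGF, with 0.39 in HM and 0.13 in HF. A gene is counted here when it reaches 1.5-fold on that scale, a difference of 0.585. This is a rule of size and not a test, and Hr in PGM lay just under it at 1.48-fold.

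Klf9 (chr19:23141226-23168134), a zinc finger transcription factor, was the most abundant of the 8. It was at 123.38 RPKM in PGM and 114.51 in PGF, with 106.08 in HM and 105.91 in HF, against 101.39 in Control. Its order of groups was that of Hr, an order shared by 4.35% of the 17481 genes compared, over a narrower span. The differences from Control were 0.28 in PGM and 0.17 in PGF, with 0.06 in HM and 0.06 in HF. Of the genes compared, 37.8% spanned the 5 groups at least as widely as Klf9, and 9.76% as widely as Hr.

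Thrsp (chr7:97412938-97417730), the lipogenic regulator, was at 30.15 RPKM in PGM and 34.10 in PGF, with 28.29 in HM and 26.83 in HF, against 23.82 in Control. PGF was highest and Control again lowest. The differences from Control were 0.33 in PGM and 0.51 in PGF, with 0.24 in HM and 0.17 in HF, none of them at 1.5-fold. Its span over the groups was 1.42-fold, and 12.4% of the genes compared spanned as much.

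**Figure D1:**
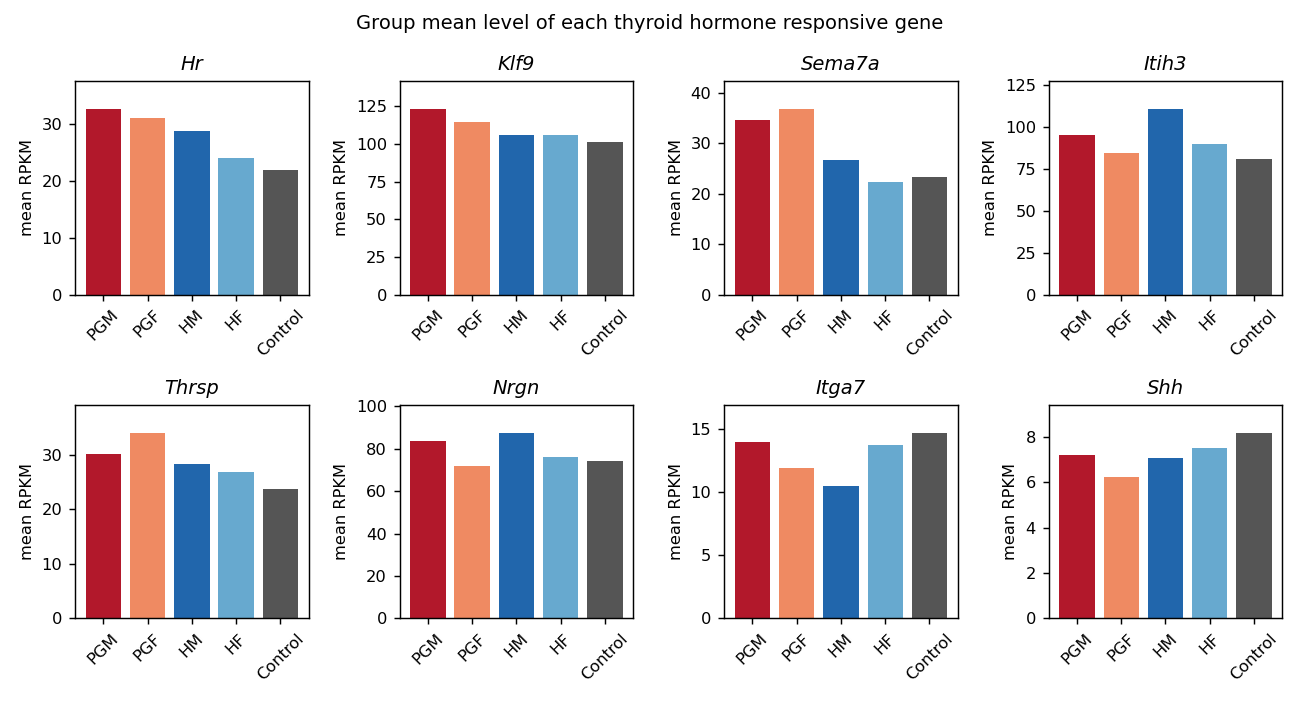
Group mean level in RPKM (vertical axes, each starting at 0) of the 8 thyroid hormone responsive genes in PGM, PGF, HM, HF and Control. Each bar is the authors' mean, with no error known; Control is the lowest bar for Hr, Klf9, Itih3 and Thrsp and the highest for Itga7 and Shh.

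Of the secreted and membrane-bound signals, Sema7a had the largest difference of the 8 genes. Sema7a (chr9:57940112-57962865) was at 34.66 RPKM in PGM and 36.82 in PGF, with 26.63 in HM and 22.29 in HF, against 23.23 in Control. PGM and PGF stood together above the other 3 groups, and HF was the lowest. It differed from Control by 0.57 in PGM and 0.65 in PGF, with 0.19 in HM and -0.06 in HF. In PGF this was 1.57-fold, the only difference from Control among the 8 genes that passed 1.5-fold, while PGM lay just under it at 1.48-fold. PGF against HF gave 0.71, or 1.64-fold, and 5.19% of the genes compared spanned the groups as widely as Sema7a.

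Shh (chr5:28456815-28467256) was the least abundant of the 8 and went the other way. It was at 7.22 RPKM in PGM and 6.22 in PGF, with 7.08 in HM and 7.50 in HF, against 8.20 in Control. Control was the highest group and PGF the lowest. The differences from Control were -0.17 in PGM and -0.37 in PGF, with -0.20 in HM and -0.12 in HF. Shh is overlapped by 2 annotated RNAs on the opposite strand, and no source used here says whether strand was used in counting. Of these, 9530036O11Rik is in the table, at 1.40 RPKM in PGM and 1.39 in PGF, with 1.53 in HM and 1.60 in HF, against 1.88 in Control. If strand was not used, reads of the pair cannot be told apart.

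Among the genes of the matrix and its receptors, Itih3 and Itga7 differed from Control in opposite directions, both most in HM. Itih3 (chr14:30908572-30923760) was at 95.52 RPKM in PGM and 84.49 in PGF, with 110.87 in HM and 90.11 in HF, against 80.72 in Control. HM was the highest group, and PGF lay next to Control. Its differences from Control were 0.24 in PGM and 0.07 in PGF, with 0.46 in HM and 0.16 in HF.

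Itga7 (chr10:128933818-128958282) was the only member with several transcripts, and its median was at 13.97 RPKM in PGM and 11.94 in PGF, with 10.52 in HM and 13.76 in HF, against 14.72 in Control. The gene differed from Control by -0.07 in PGM and -0.29 in PGF, with -0.47 in HM and -0.09 in HF. Its 3 transcripts were at 10.80, 10.52 and 9.54 RPKM in HM, against 15.17, 14.72 and 12.76 RPKM in Control. HM was the lowest group for all 3, with differences from Control of -0.47, -0.47 and -0.40. In PGM and HF the least abundant transcript, uc007hpc.1, was at 12.90 and 12.86 RPKM, against 12.76 RPKM in Control, a difference of 0.02 and 0.01 where the other 2 lay below Control.

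Nrgn (chr9:37544492-37552904), the synaptic member, was at 83.92 RPKM in PGM and 72.13 in PGF, with 87.67 in HM and 76.25 in HF, against 74.04 in Control. HM and PGM were the higher groups, and PGF lay below Control. The differences from Control were 0.18 in PGM and -0.04 in PGF, with 0.24 in HM and 0.04 in HF, and 38.2% of the genes compared spanned the groups as widely.

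**Figure D2:**
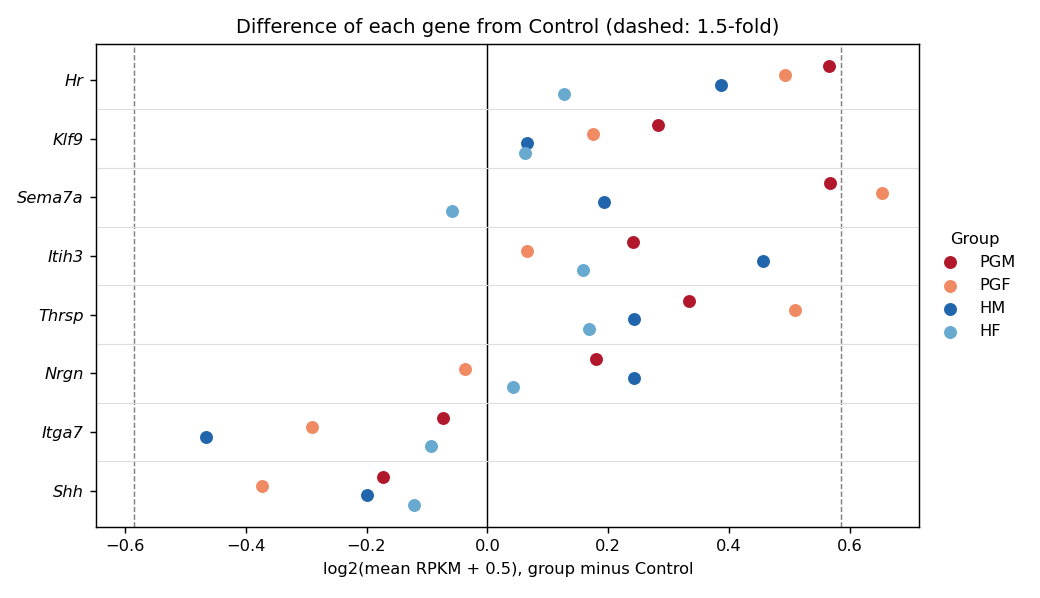
Difference of log2(mean RPKM + 0.5) from Control (horizontal axis) of each of the 8 genes (rows) in PGM, PGF, HM and HF (colours). The dashed lines mark 1.5-fold; the PGF point of Sema7a at 0.65 is the only one beyond them, and the HF points lie nearest to 0 for most genes.

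Counted together, 0 of the 8 genes were at 1.5-fold from Control in PGM, where 4.62% of all genes compared were. The count was 1 of 8 in PGF against 4.04% of all genes, 0 of 8 in HM against 1.54%, and 0 of 8 in HF against 0.829%. The 4 comparisons share the Control mean, so they are not independent of each other. The median difference of the 8 genes was 0.26 in PGM and 0.12 in PGF, with 0.22 in HM and 0.05 in HF, beside 0.00 in PGM and -0.03 in PGF, with -0.03 in HM and 0.02 in HF over all genes compared. Regardless of direction, the median size of the difference was 0.26 in PGM and 0.33 in PGF, with 0.24 in HM and 0.11 in HF for the 8 genes. Over all genes compared it was 0.14 in PGM and 0.13 in PGF, with 0.10 in HM and 0.07 in HF. Because the 8 genes were chosen with earlier results of these data known, this contrast is a description only. Control was the lowest of the 5 groups for 4 of the 8 genes, as it was for 23.3% of all genes, and the highest for 2 of the 8, as it was for 25.0% of all genes.

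Between groups other than Control, few of the 8 genes differed by 1.5-fold. PGM against PGF had 0 of 8 genes at 1.5-fold (0.99% of all genes), with differences from -0.17 for Thrsp to 0.22 for Itga7 and Nrgn. HM against HF had 0 of 8 (1.68% of all genes), from -0.37 for Itga7 to 0.30 for Itih3. PGM against HM had 0 of 8 (1.6% of all genes), from -0.21 for Itih3 to 0.39 for Itga7. PGF against HF had 1 of 8, Sema7a (3.28% of all genes), and the lowest was Shh at -0.25.

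The 8 genes did not share a single pattern over the groups. With each gene's values on the log2 scale centred on their own mean, the root mean square distance over the 5 group means was smallest for Itih3 and Nrgn, at 0.07, among 28 pairs. Hr and Thrsp came next at 0.11, and Sema7a and Shh were farthest apart at 0.39. Hr, Klf9, Sema7a and Thrsp had PGM and PGF as their 2 highest groups, Itih3 and Nrgn had HM and PGM, and Itga7 and Shh had Control highest. Sema7a was the only member that spanned at least 1.5-fold over the groups. Among the genes closest to it by the same distance were Map6d1 at 0.02 and Dapk2 at 0.03. Map6d1 was at 44.74, 48.02, 34.32 and 29.62 RPKM in PGM, PGF, HM and HF, against 30.58 in Control. Dapk2, a protein kinase gene, was at 4.78, 5.00, 3.35 and 2.84 RPKM in PGM, PGF, HM and HF, against 2.85 in Control.

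In PGM, PGF and HM, the summed thalamic and myelin markers lay farther from Control than the summed 8 genes. The 8 genes summed to 121% of Control in PGM and 112% in PGF, with 117% in HM and 105% in HF. This sum mostly follows Klf9, Itih3 and Nrgn, at 101.39, 80.72 and 74.04 of its 348.07 RPKM in Control. Single genes differed from it, with Hr at 149% in PGM and Sema7a at 159% in PGF, while Itga7 and Shh were below Control in all 4 groups. All 10 myelin genes were higher than Control in PGM, PGF, HM and HF, and their summed level was 160% of Control in PGM and 201% in PGF, with 137% in HM and 106% in HF. The 8 markers of the thalamus, which lies above the hypothalamus, summed to 274% of Control in PGM and 261% in PGF, with 150% in HM and 100.5% in HF. They passed 1.5-fold higher in 8 of 8 in PGM, 7 of 8 in PGF, 4 of 8 in HM and 1 of 8 in HF. PGM, PGF and HM, in which Hr and Sema7a differed more from Control than in HF, thus also had the higher thalamic and myelin sums, and the part of these markers in the results on the 8 genes was not tested. In such bulk samples, fewer cells of a type and less RNA per cell cannot be told apart.

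Summed markers of the striatum and of cortex and hippocampus were also above Control, and those of the hypothalamus below it. The 8 striatal markers summed to 155% of Control in PGM and 113% in PGF, with 108% in HM and 117% in HF, and those of cortex and hippocampus to 142% in PGM and 143% in PGF, with 109% in HM and 101% in HF. The cortex and hippocampus list differed in sign by its median, at -0.18 in PGM and -0.10 in PGF, with -0.05 in HM and -0.07 in HF. The 12 hypothalamic markers, none of them at 0 in any group, summed to 74.4% of Control in PGM and 86.3% in PGF, with 91.8% in HM and 89.6% in HF. Their median difference was -0.82 in PGM and -0.88 in PGF, with -0.23 in both HM and HF. At least 1.5-fold lower were 8 of 12 in PGM and 9 of 12 in PGF, with 1 of 12 in HM and 0 of 12 in HF. The PGF sum includes Pomc, which the pituitary also makes, and the summed pituitary list was 2086% of Control in PGF. The summed level of choroid plexus genes, from tissue that lies in the ventricles, was above Control in every group and most so in PGF. These genes summed to 453% of Control in PGM and 1650% in PGF, with 161% in HM and 148% in HF, a sum in which Ttr, the thyroxine carrier, was at 106.05 RPKM in PGM and 440.49 in PGF, with 22.75 in HM and 18.70 in HF, against 7.01 in Control. The median difference of the 7 choroid plexus genes past the filter was 0.33 in PGM and 0.67 in PGF, with 0.24 in HM and 0.16 in HF. Meningeal genes summed to 50.7% in PGM and 69.5% in PGF, with 64.4% in HM and 111% in HF. The meningeal sum was thus below Control in the same 3 groups in which the thalamic sum was most above it. Erythroid genes summed to 58.8% of Control in PGM and 77.5% in PGF, with 49.2% in HM and 90.2% in HF. For cells found throughout the brain, the astrocyte, microglial and vessel sums lay between 85.9% and 124% of Control in all 4 groups. The highest was the vessel sum in HF, where 2 of its 7 genes were 1.5-fold higher than Control, as were 0.658% of all genes. These were the smooth muscle genes Acta2 and Myh11, at 1.19 and 1.16. The others of that list lay between -0.07 for Flt1 and 0.20 for Pecam1. In PGM 1 of the 7 astrocyte genes was 1.5-fold lower. The Y-linked gene Ddx3y was at 30.41 RPKM in PGM and 31.97 in PGF, with 16.75 in HM and 15.91 in HF, against 2.52 in Control. All 4 Y-linked genes listed were 1.5-fold higher than Control in every group. Xist had the reverse order, at 14.2 RPKM in PGM and 11.57 in PGF, with 26.4 in HM and 35.4 in HF, against 44.0 in Control. Whether the sex of the animals bears on the 8 genes was not tested, and in these means sex and group cannot be told apart.

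**Figure D3:**
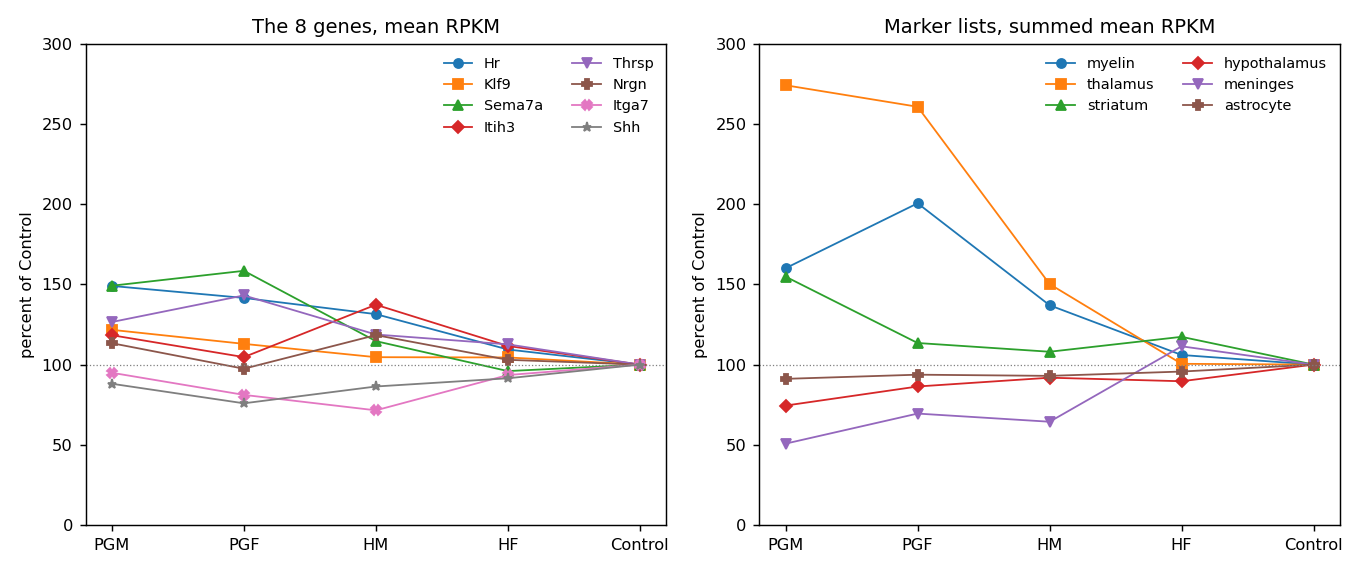
Level as percent of Control (vertical axes, from 0) in PGM, PGF, HM, HF and Control for the 8 genes (left, mean RPKM) and for 6 marker lists (right, summed mean RPKM); lines only join the points of a gene or list. The thalamus list reaches 274% in PGM and the myelin list 201% in PGF, while the 8 genes stay between 71.5% for Itga7 in HM and 159% for Sema7a in PGF.

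Of 16 other genes that thyroid hormone raises in rodent brain, 14 passed the filter. In PGM 1 of them was at least 1.5-fold higher than Control, in PGF 2, in HM 0 and in HF 1, while 0 were 1.5-fold lower in any of these groups. Of all genes compared, 2.34% were that much higher in PGM and 2.16% in PGF, with 0.675% in HM and 0.658% in HF. The 14 genes had a median difference of 0.20 in PGM and 0.04 in PGF, with 0.06 in HM and 0.13 in HF. Rora, a nuclear receptor gene that is also in the thalamic list, was at 89.23 RPKM in PGM and 84.55 in PGF, with 61.48 in HM and 44.27 in HF, against 46.20 in Control. Its order of groups differs from that of Hr only in the place of HF and Control. Nefh, the heavy neurofilament gene, was at 128.88 RPKM in PGM and 141.36 in PGF, with 118.97 in HM and 100.02 in HF, against 91.13 in Control, and passed 1.5-fold in PGF at 0.63. Aldh1a1, an enzyme of retinoic acid synthesis, was at 41.45 RPKM in PGM and 67.15 in PGF, with 57.79 in HM and 74.73 in HF, against 46.81 in Control. Its largest difference from Control, 0.67, was in HF, and the part of any tissue markers in it was not tested.

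Of 11 genes that thyroid hormone lowers, all passed the filter, and 2 were at least 1.5-fold lower than Control in PGM and 2 in PGF, with 4 in HM and 0 in HF. The shares of all genes compared were 2.28% in PGM and 1.88% in PGF, with 0.864% in HM and 0.172% in HF. The median difference was -0.12 in PGM and -0.24 in PGF, with -0.26 in HM and -0.0031 in HF. Dgkk, a diacylglycerol kinase gene, was at 18.55 RPKM in PGM and 17.31 in PGF, with 26.14 in HM and 33.02 in HF, against 44.70 in Control, and reached -1.34 in PGF. Trh, the hypothalamic releasing hormone that the thyroid hormone feeds back on, was at 87.88 RPKM in PGM and 75.95 in PGF, with 111.33 in HM and 124.32 in HF, against 135.42 in Control. Both were lowest in PGF and highest in Control. The same held for Otp, a transcription factor gene of hypothalamic neurons and 1 of the 12 hypothalamic markers. Otp differed from Control by -1.14 in PGM and -1.29 in PGF, with -0.68 in HM and -0.45 in HF. Not all 12 markers lay below Control, as 1 was above it in PGM and 3 in PGF, with 3 in HM and 3 in HF. The part of the hypothalamic markers in the values of Trh and Dgkk was not tested. Odf4 was at 14.05 RPKM in HM, against 23.67 in Control, a difference of -0.73. Col6a1 and Col6a2, subunits of a matrix collagen named here after their values were seen, also passed 1.5-fold lower in HM, at -0.61 and -0.59. Col6a2 passed only just, at -0.5858 where the rule asks for a size of 0.585, and the HM count of 4 depends on it. Whether the counts of this list hold under the alternative settings was not tested. Dio2, the activating deiodinase, was the only gene of this list above Control in PGM, while in PGF 2 of the 11 were above it, as were 2 in HM and 5 in HF. Its level was 17.74 RPKM in PGM and 23.45 in PGF, with 21.58 in HM and 16.76 in HF, against 14.47 in Control. Dio2 was 1.5-fold higher in PGF at 0.68 and just under it in HM at 0.56.

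Of 17 genes for hormone transport, deiodinases, receptors and cofactors, 15 passed the filter. Against Control, 1 was 1.5-fold higher and 1 lower in PGM, 2 higher and 1 lower in PGF, 1 higher in HM and 1 higher in HF. Of all genes compared, 2.34% were that much higher in PGM and 2.16% in PGF, with 0.675% in HM and 0.658% in HF. The shares that much lower were 2.28% in PGM and 1.88% in PGF, with 0.864% in HM and 0.172% in HF. Crym, which encodes a cytosolic thyroid hormone binding protein, was at 21.22 RPKM in PGM and 7.96 in PGF, with 10.07 in HM and 13.88 in HF, against 4.83 in Control, and passed 1.5-fold higher in all 4 groups. The striatal sum was also above Control in all 4, at 155% in PGM and 113% in PGF, with 108% in HM and 117% in HF. Not every striatal gene was, as 7 of 8 lay above Control in PGM and 6 in PGF, with 6 in HM and 7 in HF. The part of the striatal markers in the values of Crym was not tested. The receptor genes differed less than Crym. Thra differed from Control by -0.03 in PGM and -0.15 in PGF, with -0.08 in HM and 0.03 in HF, and Thrb by 0.17 in PGM and 0.11 in PGF, with 0.16 in HM and -0.04 in HF. The inactivating deiodinase gene Dio3 was under the filter, at 1.27 RPKM in PGM and 0.76 in PGF, with 0.92 in HM and 1.06 in HF, against 0.94 in Control.

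**Figure D4:**
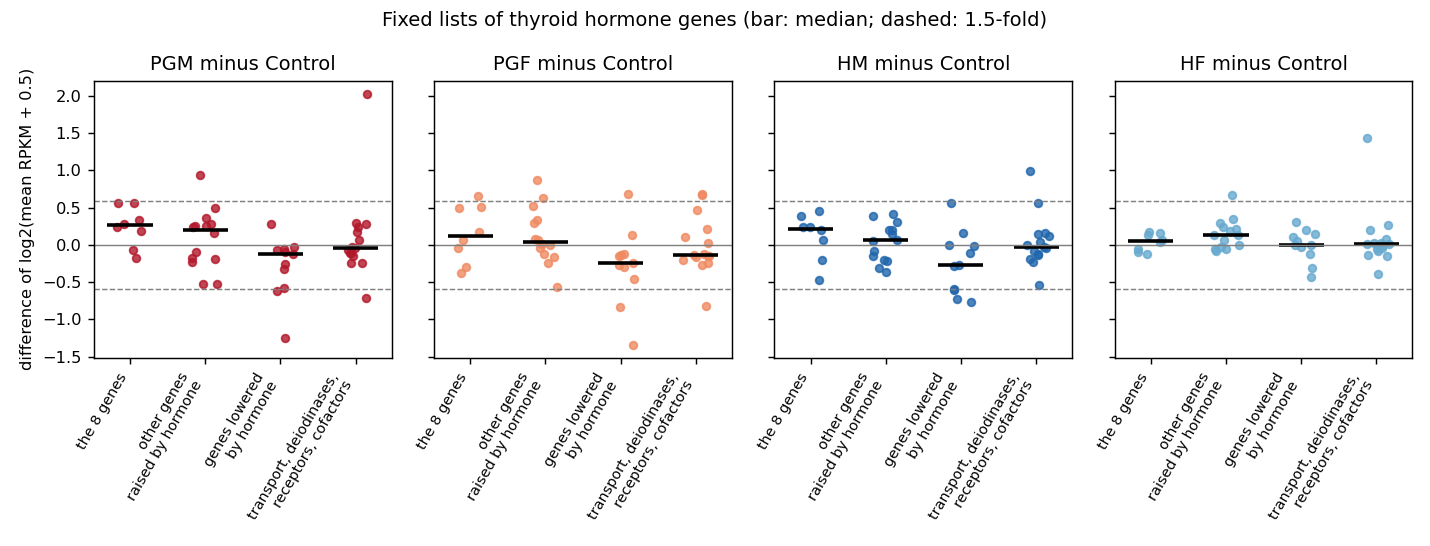
Difference of log2(mean RPKM + 0.5) from Control (vertical axis) of the genes that passed the filter in 4 lists, in PGM, PGF, HM and HF (panels). Points are genes, black bars are list medians and dashed lines mark 1.5-fold; the highest point in PGM is Crym at 2.03, and the lowest in PGF is Dgkk at -1.34.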

How the data were processed

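Total RNA of mouse hypothalamus was sequenced in 15 samples, 3 in each of 5 groups taken from the sample titles. The deposited table holds RPKM values that the authors had averaged over each group, per the file headers, for 49404 transcripts with UCSC known gene identifiers. FastQC and Novoalign 2.08 and the build mm10 are named in the submitters' processing notes. No source used here gives the counting program, its use of strand and of shared reads, or the depth. RPKM depends on what other genes take of a library, and a mean hides any animal that stands apart.

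A repeated header row inside the table was dropped. Each gene name was given the median of its transcripts, names whose 5-group mean reached 1 RPKM were compared, and a difference is that of log2(mean RPKM + 0.5), which understates the difference of low genes. There were 8 comparisons and a 1.5-fold rule, with no test. The members and the other 16 lists were chosen with earlier results of these data known. Of the listed names, 1 was matched through a synonym and 2 were not found. Named were all members, up to 4 genes past 1.5-fold per thyroid hormone list by largest difference from Control, Thra, Thrb, Dio2 and Dio3, and the 3 genes with profiles closest to a member that spanned 1.5-fold, leaving out clone names. Some genes that this rule takes are not reported here. Marker lists are given by sums and counts, with Ddx3y, Xist, Pomc, Ttr, Otp, Acta2, Myh11, Flt1 and Pecam1 added. Gene positions come from GENCODE M21 and promoters from RefSeq (GRCm38.p6). The calculations were tested on simulated data. Alternatives were a pseudocount of 0.1 or of 1, the filter left out or raised to 3 RPKM, scaling to the upper quartile, the highest or the summed transcript, and a 2-fold rule. Python 3.11.15, numpy 2.4.6, pandas 2.3.3 and matplotlib 3.10.9 were used.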

Additional observations from a re-analysis of the deposited data

How the results depend on the processing

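The number of the 8 genes at 1.5-fold was the same in all 8 comparisons under 7 of the 8 alternatives. These were a pseudocount of 0.1 or of 1, the filter left out or raised to 3 RPKM, scaling to the upper quartile, and the highest or the summed transcript. With a 2-fold rule it was 0 in PGF against Control and 0 in PGF against HF, where it had been 1 (Sema7a), because Sema7a stood at 0.65 and 0.71. The filter settings could not alter any member's values, because the lowest member mean over the groups was 7.24 RPKM, for Shh. The highest and the summed transcript could alter only Itga7, the only member with several transcripts. Agreement under the filter settings is therefore no check, and under the transcript settings it concerns Itga7 only. No member's difference moved by more than 0.0493 on the log2 scale, and no median of the 8 genes by more than 0.0487. Of 64 differences, 1 changed sign, that of Shh in PGM against HM, which was 0.03 and became -0.02 with scaling to the upper quartile. Leaving out replicates was not run, because the table holds group means. No paired analysis was possible because the columns carry no replicate numbers. How far these differences exceed the spread between animals is therefore unknown, and the depth, which limits low genes such as Shh and Dio3 most, is unknown too.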

Other observations

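The genes here are named after their values were seen. In the list raised by thyroid hormone, Dbp and Aldh1a1 differed more between groups other than Control than against it. Dbp, a transcription factor gene of the circadian output, was at 95.88 RPKM in PGM and 60.35 RPKM in HM, a difference of 0.66, and at 74.75 RPKM in Control. Aldh1a1 was at 41.45 RPKM in PGM and 67.15 RPKM in PGF, a difference of -0.69. Reln, which encodes the migration signal reelin, was at 22.21 RPKM in PGM and 21.44 in PGF, with 24.68 in HM and 31.85 in HF, against 32.02 in Control, and its differences from Control of -0.52 in PGM, -0.57 in PGF and -0.37 in HM were opposite in sign to those of Hr. Of the genes that the hormone lowers, Col6a1 was at 7.99 RPKM in HM and 15.56 RPKM in HF, a difference of -0.92, and Col6a2 was at 5.11 RPKM in HM and 8.54 RPKM in HF, a difference of -0.69. The meningeal list, which shares no gene with that list, summed to 64.4% of Control in HM and 111% in HF, and its part in these values was not tested.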
